A study of Homo sapiens with 14 samples.

Results

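Among the places where SATB1 was mapped in Jurkat cells, a small class coincided with CTCF and carried no H3K27ac. These sites were the regions called in both SATB1 lists that overlapped, by at least 1 bp, a CTCF region called in at least 2 of 3 shCtrl lists, and that overlapped no peak of either shCtrl H3K27ac list. The rule gave 773 sites of 13072 SATB1 regions (5.91%, 95% Wilson interval 5.52 to 6.33). CTCF together with H3K27ac was present at 8508 SATB1 regions, H3K27ac without CTCF at 1962, and no peak of either at 1829. The sites were thus selected on the SATB1 peaks and on the CTCF and H3K27ac peaks of shCtrl, and the values of those lists are given below as a description.

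The maps came from 14 CUT&Tag libraries of Jurkat, an established human T cell leukaemia line, with 1 peak list per library. CUT&Tag uses an antibody to bring a transposase to a protein or histone mark, so that the DNA beside it is cut and sequenced. Cells infected with a lentiviral shRNA against SATB1 (shSATB1, genotype SATB1 knockdown) gave CTCF (3 libraries) and H3K27ac (2). Cells infected with the control shRNA (shCtrl, genotype control) gave CTCF (3), H3K27ac (2) and SATB1 (2), and Matrin 3 (2) was mapped in Jurkat with no shRNA on its label. No SATB1 library of shSATB1 cells was analysed here, so the loss of SATB1 itself was not checked. The labels do not say that replicates came from separate cultures, nor whether infected cells were a pool or 1 clone, so a p-value reflects how these libraries vary, and that variation may be technical. Of 12 T cell markers, 10 carried H3K27ac at a gene end in both shCtrl lists, against 1 of 6 B cell, 0 of 6 myeloid and 0 of 6 erythroid markers. CD79A was the B cell marker with H3K27ac.

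The libraries differed in ways that bear on the sites. In the 2 SATB1 lists 6001 peaks began at the same base (40.8% of those in list 2), against at most 1.03% in any other pair, so they were counted as 1 sample; 403 of the sites (52.1%) had such a peak. CTCF lists held 14695 to 20284 peaks in shSATB1 and 31141 to 32540 in shCtrl, and the Matrin 3 lists held 24566 and 2105. Read totals were not used here and the depth is unknown. Wilson intervals below cover counting error over sites only. A peak list cannot tell fewer cells with a bound site from less binding in each cell.

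SATB1 is a chromatin organiser abundant in thymocytes, where it binds AT-rich DNA and gathers distant regions. CTCF is a zinc finger protein that binds a long motif, halts cohesin and so marks many loop anchors and domain borders. H3K27ac is a histone mark of active promoters and enhancers, and Matrin 3 is an RNA-binding protein of the nuclear matrix.

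Sequence could be read at the promoters that lay wholly inside the sites. Of 34961 promoter windows in the RefSeq table (GRCh38.p14, 250 bases before to 50 after a start), 192 windows of 176 genes did so. The CTCF core CCA-NN-AG-NN-GGC (N is any base), searched on both strands, was present in 10 of them (5.21%, 2.85 to 9.32). Some windows overlap, so these 10 hold 8 distinct stretches: DACT3 and DACT3-AS1 share 1, and both windows of LRIG1 hold another. The share was 2.60% of 4764 windows in SATB1 sites with CTCF and H3K27ac, 4.87% of 4208 windows over CTCF without SATB1 or H3K27ac, and 2.41% of all windows. The 4208 windows needed only to overlap a CTCF region, a looser rule than lying wholly inside a site. A stricter degenerate CTCF consensus matched 0 of the 192, 0.399% and 2.00% of those other classes and 0.472% of all windows. In 3 of the 10 windows the core began with CCAAT, the letters that the factor NF-Y is known to bind. These are TOM1L2, DACT3 and DACT3-AS1, of which the DACT3 pair share 1 stretch. It did so in 4 of 124 core windows in SATB1 sites with CTCF and H3K27ac. The count was 8 of 205 over CTCF without SATB1 or H3K27ac, and 27 of 844 over all windows. With so few windows, nothing is read from this. The windows inside the sites were 64.0% G and C on average, against 62.8% in SATB1 sites with CTCF and H3K27ac, 65.1% over CTCF without SATB1 or H3K27ac and 57.6% for all windows. A match describes letters and is not shown to be a bound site. The 5 matching promoters with the highest SATB1 follow. They were picked for holding the core, which most of the 192 windows lack, so they do not stand for the other windows. Each is read 5′ to 3′ along the gene's own strand, with the core in capitals.
TOM1L2, minus strand, chr17:17972434-17972565: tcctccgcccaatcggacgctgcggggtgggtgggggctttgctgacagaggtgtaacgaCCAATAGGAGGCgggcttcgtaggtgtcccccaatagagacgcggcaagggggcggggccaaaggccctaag
DACT3, minus strand, chr19:46661197-46661328: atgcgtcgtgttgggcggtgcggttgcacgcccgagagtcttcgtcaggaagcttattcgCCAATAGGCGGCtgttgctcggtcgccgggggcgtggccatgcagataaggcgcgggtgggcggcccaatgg
GOLPH3L, minus strand, chr1:150697241-150697372: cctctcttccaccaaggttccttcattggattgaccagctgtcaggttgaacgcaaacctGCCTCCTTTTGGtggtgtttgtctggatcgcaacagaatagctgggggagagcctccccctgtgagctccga
COMMD2, minus strand, chr3:149752651-149752739: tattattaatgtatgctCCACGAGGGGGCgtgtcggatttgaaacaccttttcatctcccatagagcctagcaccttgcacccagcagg
SPAST, plus strand, chr2:32063564-32063593: cgctgggagCCACCAGGCGGCggagaggac
The core in GOLPH3L is on the opposite strand, so it appears as its reverse complement. It starts 105 bases before the start of TOM1L2, 86 before that of DACT3, 158 before that of GOLPH3L and 233 before that of COMMD2, and in SPAST it lies 17 bases after the start. TOM1L2 encodes an adaptor of endosomal sorting, DACT3 an antagonist of Wnt signalling and SPAST the microtubule-severing enzyme spastin. The DACT3 site held CTCF at percentiles of 98.2, 99.2 and 99.4 in shSATB1 and of 99.0, 98.9 and 99.1 in shCtrl. Percentile here is the rank of a peak's maximum signal within its own list, so it does not depend on scale. The lists of both arms differ in length, so a percentile places a site within its list and shows no change between arms. GOLPH3L held CTCF at percentiles of 54.4, 61.5 and 50.5 in shSATB1 and of 71.1, 77.7 and 75.8 in shCtrl. COMMD2 had no CTCF peak in shSATB1 replicate 1 and percentiles of 35.2 and 67.6 in the others, against 61.0, 65.9 and 73.9 in shCtrl. CTCF was thus called at DACT3 and GOLPH3L in all 6 lists and at COMMD2 in 5 of them.

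The sites were narrower than the SATB1 sites with CTCF and H3K27ac, and fewer lay at genes' ends. Their median width was 1102 bp (quartiles 912 and 1357), against 1434 bp. Of the sites, 251 (32.5%, 29.3 to 35.9) had an end of a protein-coding gene no more than 2 kb away, against 44.9% of the SATB1 sites with CTCF and H3K27ac, 5.25% of those with H3K27ac alone and 3.94% of those with no peak of either. Another 296 (38.3%) lay elsewhere inside a gene and 226 (29.2%) outside genes. The gene table has no strand, so a promoter and the far end of a gene were not told apart, nor exons from introns. With CTCF, then, SATB1 lay at gene ends more often than without it, whether or not H3K27ac was present.

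The nearest shCtrl H3K27ac peak was usually far away. The median gap was 40919 bp (quartiles 11846 and 87825), 166 sites were over 100 kb away and 73 were within 2 kb. The members closest to the limit were at LAMA3 (21 bp from a peak), ITM2B (34 bp) and SLC17A5 (48 bp), which encode a laminin chain, a membrane protein and a lysosomal sialic acid transporter. Just outside it, the SATB1 sites chr2:234490513-234492873, chr9:77830488-77832827 and chr3:33043821-33045416 overlapped H3K27ac by 6, 98 and 105 bp. On the CTCF side, 653 sites were called in all 3 shCtrl lists and 99 in 2. A further 21 were overlapped directly in 1 list, since the merged CTCF region they touch reached the other lists elsewhere.

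**Figure D1:**
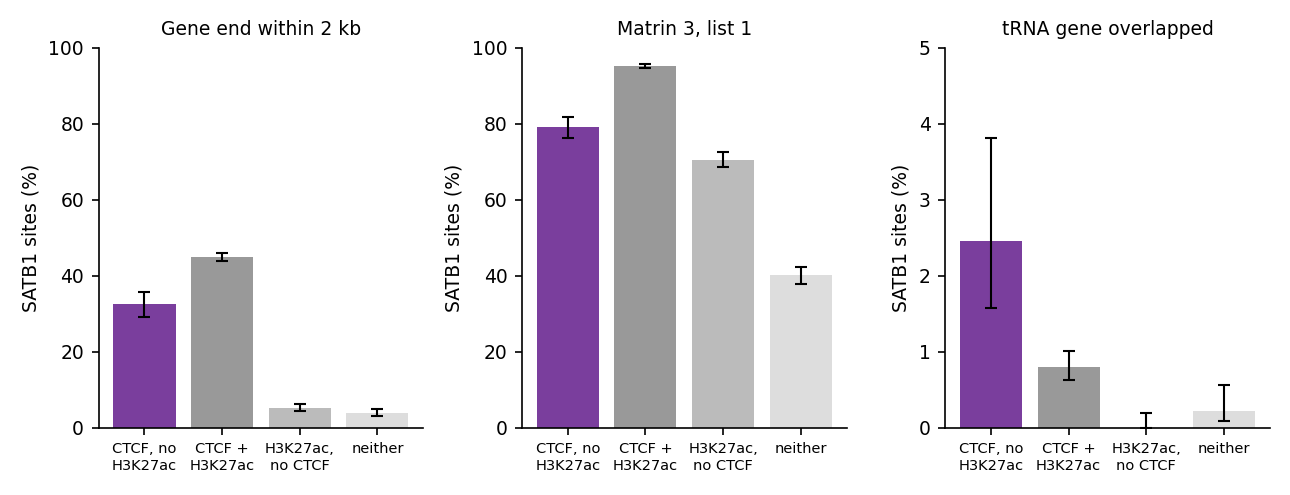
Share of SATB1 sites (y axis, %) in each of 4 classes that have a protein-coding gene end within 2 kb, a peak of the longer Matrin 3 list, or a tRNA gene; bars are shares and lines are 95% Wilson intervals. The sites with CTCF and no H3K27ac stand at 32.5%, 79.2% and 2.46%, and the third panel has its own scale.

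SATB1 signal ranked near the middle of each list. The median percentile of maximum signal was 49.5 and 48.5 in the SATB1 lists, against 58.6 and 57.9 at the sites with CTCF and H3K27ac. The strongest sites nevertheless reached the top of the list. A site inside DENND1A, which encodes a regulator of endosomal Rab proteins, stood at percentiles of 99.9 and 99.8 (chr9:123636904-123638823). TRERF1, a transcriptional regulator, followed at 99.5 and 99.5, and TEX14, a germ cell bridge protein whose site also covers the snRNA gene LOC124904122, at 99.4 and 99.5. The next 7 were at or nearest to GFRA2, NBAS, HDLBP, ERCC6L2, CCDC170, MYO3B and GARNL3, down to a mean of 98.2.

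High SATB1 did not go with high CTCF at these 10 sites. Their mean shCtrl CTCF percentile ran from 18.0 at TRERF1 to 72.9 at GARNL3, and it was 24.8 ± 5.03 (SD, n = 3) at DENND1A. DENND1A had no CTCF peak in any shSATB1 library, and an H3K27ac peak in both shSATB1 libraries at percentiles of 43.8 and 16.9. HDLBP, which encodes the RNA-binding protein vigilin, held CTCF at 19.1, 19.1 and 48.5 in shSATB1 and at 62.3, 61.7 and 50.8 in shCtrl. CTCF was thus called in all 6 lists at HDLBP and in the shCtrl lists alone at DENND1A.

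The SATB1 and CTCF maxima lay close together at many of the sites, though not at all. In the first list of each, the median distance was 109 bp (quartiles 37 and 373). Both maxima were within 100 bp at 48.5% of sites and over 1000 bp apart at 18.9%. At the sites with CTCF and H3K27ac the median was 120 bp, with 45.9% within 100 bp and 21.3% over 1000 bp. Over the 6 pairs of SATB1 and shCtrl CTCF lists the medians ran from 104 to 112 bp at the sites without H3K27ac and from 118 to 123 bp at those with it. The lists come from the libraries that the rule used, so the distance describes the sites and is not tested.

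**Figure D2:**
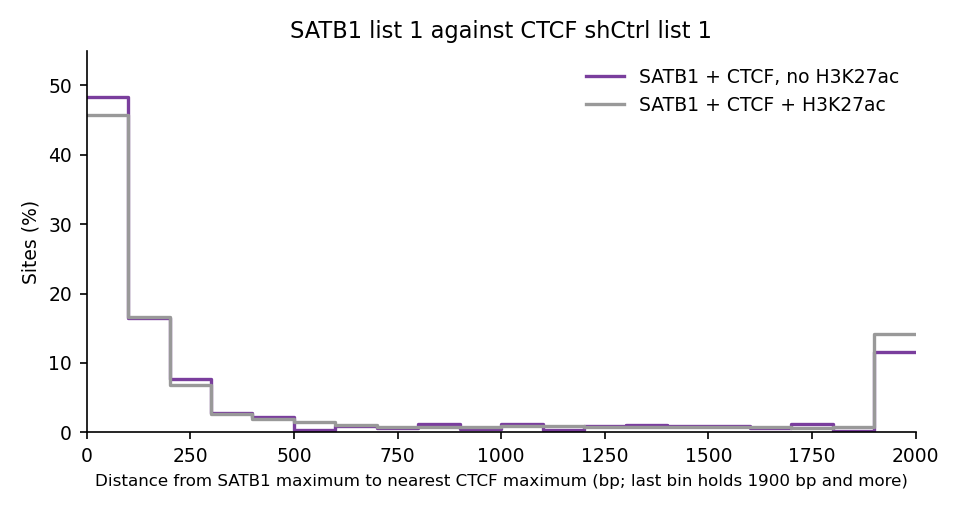
Share of sites (y axis, %) by the distance in bp from the SATB1 maximum to the nearest CTCF maximum (x axis, bins of 100 bp), in SATB1 list 1 and CTCF shCtrl list 1. The first bin is the tallest in both classes, and the last collects all distances of 1900 bp and more.

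CTCF was called at fewer of the sites in shSATB1 than in shCtrl. Peaks overlapped 45.7%, 53.0% and 60.9% of the 773 sites in the shSATB1 libraries, against 93.9%, 91.6% and 96.2% in the shCtrl libraries, where the rule sets the share near its ceiling. The means were 53.2 ± 7.63% in shSATB1 and 93.9 ± 2.33% in shCtrl (SD, n = 3 each), a difference of -40.7 percentage points (two-sided exact permutation test, p = 0.1, the smallest that 3 against 3 allows). Because the rule holds the shCtrl shares near their ceiling, the separation of the groups and this p are not read as a change. The choice of regions also holds both shCtrl shares of each gap below near the ceiling. Nothing is therefore read from the p of those gaps at full list length. With all 6 CTCF lists shortened to their 14695 highest peaks, the shares were 46.9% in shSATB1 and 49.5% in shCtrl, a difference of -2.63 points (exact p = 0.3). The length of the lists thus moved with the result, and most of the difference was not seen at equal length. Equal lengths fix the number of peaks in each list. A fall in CTCF calls over the whole genome would be removed by this, so its part was not tested.

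CTCF was called in all 3 shSATB1 lists at 322 sites (41.7%, 38.2 to 45.2), against 40.3% of all 30212 CTCF regions. It was called in no shSATB1 list at 269 sites (34.8%), against 35.4% of all CTCF regions. It was called in all 3 shCtrl lists and in no shSATB1 list at 173 sites (22.4%), against 25.6%. These shares set SATB1 regions (median width 1102 bp) beside wider CTCF regions (3144 bp). In like units, the 765 CTCF regions that held at least 1 of the sites were called at 50.5%, 57.6% and 65.2% in shSATB1, against 43.5%, 53.0% and 60.1% of all CTCF regions, higher in each of the 3 libraries. At 320 sites CTCF was called in all 6 lists.

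Against other classes the sites stood in between. At SATB1 sites with CTCF and H3K27ac, CTCF was called at 59.0%, 67.7% and 74.8% in shSATB1 and at 96.9%, 96.7% and 98.1% in shCtrl, and 56.5% of them were called in all 3 shSATB1 lists. The gap between the sites and this class was -13.9 ± 0.697 points in shSATB1 and -3.33 ± 1.66 points in shCtrl (SD, n = 3 each), a difference of -10.6 (exact permutation p = 0.1, the smallest possible). Within deciles of the shCtrl CTCF percentile this difference was -3.18 (exact p = 0.2), and at equal list length it had the opposite sign, 1.62 (exact p = 0.5). At equal list length the gap itself was -11.2 points in shSATB1 and -12.9 in shCtrl. The direction of the difference in gap between arms therefore depends on the list length.

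CTCF regions with neither SATB1 nor H3K27ac were called less often in shSATB1. The 765 CTCF regions that held the sites were called at the 50.5%, 57.6% and 65.2% given above in shSATB1, against 32.9%, 43.3% and 50.7% of the 15905 with neither. The 765 needed only to overlap a site. Unlike the 15905, they were not cleared of H3K27ac or of other SATB1 regions elsewhere in their width. In shCtrl the shares were 95.8%, 94.8% and 97.9% at the sites and 94.0%, 94.4% and 97.6% at the others. The gap was 15.5 ± 1.81 points in shSATB1 and 0.820 ± 0.835 in shCtrl (SD, n = 3 each), a difference of 14.65 points (exact permutation p = 0.1). It was 5.28 points within deciles of the shCtrl percentile and 5.30 at equal list length, each with exact p = 0.1. Of the CTCF regions with neither, 29.3% were called in all 3 shSATB1 lists. The difference in gap between arms kept its direction under both settings and was smaller in each.

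**Figure D3:**
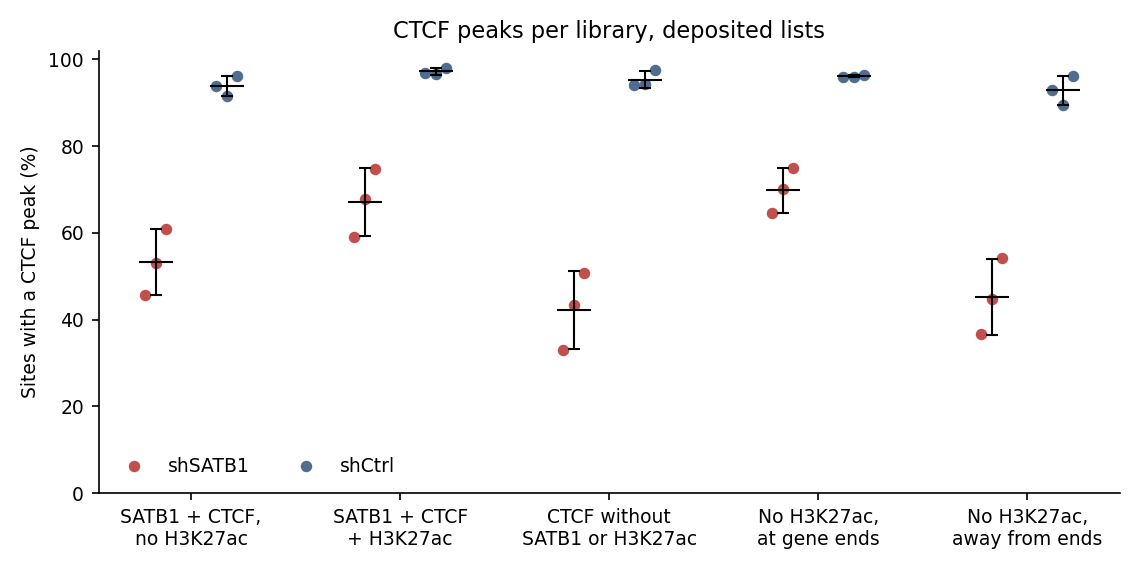
Share of sites or regions with a CTCF peak (y axis, %) per library, shSATB1 left of shCtrl, for 5 sets of sites; points are libraries, and black bars and lines are mean and SD (n = 3). The sites with CTCF and no H3K27ac lie at 45.7% to 60.9% in shSATB1 and at 91.6% to 96.2% in shCtrl.

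The sites at gene ends differed from the others in their CTCF calls. CTCF was called at 64.5%, 70.1% and 74.9% of the 251 sites at gene ends in shSATB1, against 36.6%, 44.8% and 54.2% of the 522 sites away from them. In shCtrl the shares were 96.0%, 96.0% and 96.4% at ends and 92.9%, 89.5% and 96.2% away. The gap between both kinds was 21.3 points wider in shSATB1 (exact permutation p = 0.1), 0.929 within deciles of the shCtrl CTCF percentile, and -5.54 at equal list length. At equal list length the gap itself was 27.9 points in shSATB1 and 33.5 in shCtrl. The rank of CTCF moved with this result: the median shCtrl percentile was 77.1 at gene ends and 41.7 away from them. Likewise it was 84.1 at the sites called in all 3 shSATB1 lists and 27.4 at those called in none.

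Named sites show the range. The 10 sites with the highest-ranked CTCF among those called in all 6 lists were at or nearest to TFAP4, EIF1, COL1A1, HSD11B1L, DACT3, ZNHIT2, FGF1, TYRO3, ZNF554 and AXIN1. The site nearest to TFAP4, a helix-loop-helix transcription factor, had maximum signals of 280, 439 and 433 in shSATB1 and of 1207, 1222 and 1372 in shCtrl, in the authors' units, for which no scaling between libraries is recorded in the sources used here. Its percentiles were 99.87, 99.96 and 99.93 in shSATB1 and 99.98, 99.97 and 99.98 in shCtrl. At COL1A1, a type I collagen gene, they were 99.3, 99.4 and 99.3 in shSATB1 and 99.6 in each shCtrl list. At AXIN1, a scaffold of the complex that degrades beta-catenin, they were 98.7, 99.1 and 98.9 in shSATB1 and 97.9, 97.8 and 98.5 in shCtrl. These sites thus stood near the top of every CTCF list.

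Among the 173 sites called in all 3 shCtrl CTCF lists and in no shSATB1 list, the highest-ranked in shCtrl was inside PHF12, which encodes a component of Sin3 corepressor complexes. It had shCtrl percentiles of 97.3, 97.4 and 97.2 (chr17:28947401-28948456), and lay 165 bp from H3K27ac. LOC124904276 followed at 91.1, 92.9 and 92.7, 147 bp from H3K27ac, and then CILK1, a kinase of primary cilia, at 85.9, 87.1 and 87.8. The rest were at or nearest to ALOX15B, IREB2, ACER3, FOXB1, SPRED2, GLI2 and LOC124903857, down to a mean of 72.4. The sites named by FOXB1, GLI2, LOC124903857 and IREB2 lay 117036, 82220, 53677 and 11079 bp from an end of the gene. The LOC124903857 site covers the tRNA gene TRG-CCC5-1, which is given again below. IREB2 encodes an iron regulatory protein, GLI2 a transcription factor of hedgehog signalling and SPRED2 an inhibitor of Ras signalling. Some sites under CTCF peaks of high rank in shCtrl thus had no CTCF peak over them in shSATB1, in lists that stop at a different length. Calls were counted over the site itself (median width 1102 bp), and the CTCF regions that hold sites are wider (2843 bp). Whether shSATB1 had a peak elsewhere under the same shCtrl peak is not shown here for these sites.

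H3K27ac peaks were found at a share of the sites in shSATB1. The rule allows none in shCtrl, so every such peak counts as a gain, and the reverse count is given beside it. In shSATB1, 208 sites (26.9%) had a peak in replicate 1 and 142 (18.4%) in replicate 2, 255 (33.0%, 29.8 to 36.4) in at least 1 and 95 (12.3%, 10.2 to 14.8) in both. In the reverse direction, 690 SATB1 sites with CTCF had no shSATB1 peak. Of these, 172 (24.9%) had a shCtrl peak in at least 1 list and 86 (12.5%) in both. For the reverse direction the intervals were 21.8 to 28.3 for at least 1 list and 10.2 to 15.1 for both. These intervals cover counting error over sites, so they do not compare the arms. Peaks of a single list were more common in shSATB1 replicate 1, with 113 against 47 in replicate 2.

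Several values bear on these counts. Over all 20526 merged H3K27ac regions, 2.62% were in both shSATB1 lists and no shCtrl list, and 5.95% were in both shCtrl lists and no shSATB1 list. Over all 2602 SATB1 regions without a shCtrl peak, 9.34% had a peak in both shSATB1 lists, and the share was 8.09% of the 1829 without CTCF. The rule used the shCtrl H3K27ac lists, so nothing is read from these shares. The median shSATB1 percentile of the peaks was 29.3 and 25.9, close to the 24.98 and 25.9 of such peaks at SATB1 sites with neither CTCF nor H3K27ac in shCtrl, and it was 78.5 and 76.7 at the sites with CTCF and H3K27ac. In 237 of the 255 (92.9%) the shSATB1 peak stood apart from every shCtrl peak, and in 18 it reached one. Without shSATB1 replicate 1 the share in any list is 18.4%, and without shCtrl replicate 1, which changes the sites themselves, the share in both lists is 19.9%.

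**Figure D4:**
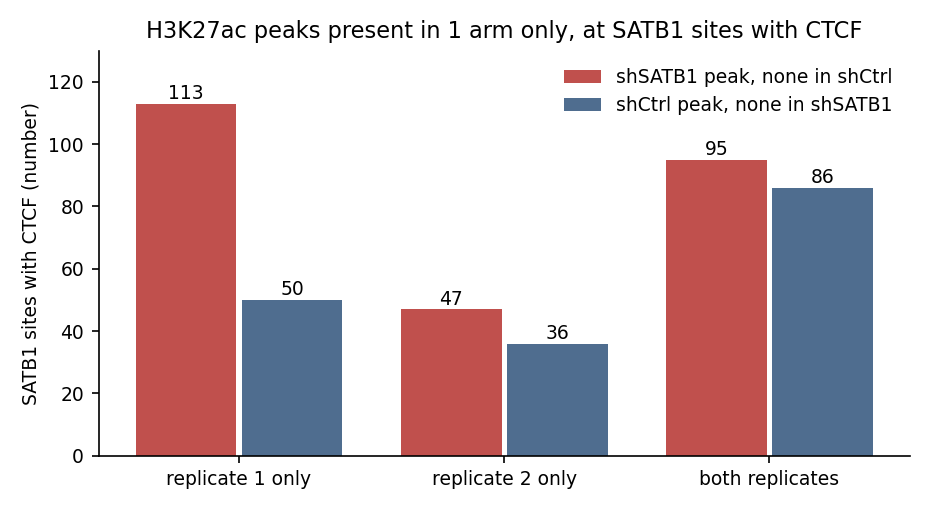
Number of SATB1 sites with CTCF (y axis) that have an H3K27ac peak in shSATB1 and none in shCtrl (left bars, 773 sites examined), or in shCtrl and none in shSATB1 (right bars, 690 examined), by the lists that hold it. Both replicates give 95 and 86 sites.

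The sites with H3K27ac in both shSATB1 lists had more SATB1 and lay nearer to H3K27ac. Their median SATB1 percentile was 65.3, against 46.3 at the 518 sites with none. The median gap to a shCtrl H3K27ac peak was 21387 bp, against 45209 bp. The share at gene ends was 38.9%, against 27.2%, and it was higher, 45.6%, at the 160 sites with a peak in 1 shSATB1 list. CTCF was called in all 3 shSATB1 lists at 45 of the 95 and in none at 23, so both marks were found together in shSATB1 at some and not at others.

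The 10 with the highest-ranked H3K27ac were at or nearest to ID1, RPS6KA2, PCYT1A, DCAF4, ZSCAN20, PEG10, RNASEH2B, HTT, H2BC18 and CLYBL. The site 1810 bp from ID1, an inhibitor of helix-loop-helix factors, stood at 40.5 and 93.0 in shSATB1 and lay 424 bp from a shCtrl peak. The site inside RPS6KA2, a ribosomal S6 kinase, stood at 73.4 and 52.0 with the nearest shCtrl peak 138155 bp away. The HTT site, which covers an end of the huntingtin gene, stood at 61.6 and 38.8 with the nearest shCtrl peak 109456 bp away. The replicates differed widely at ID1, while at RPS6KA2 and HTT no shCtrl peak was near.

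PEG10 gave the fullest single example. It is an imprinted, retrotransposon-derived gene expressed from the paternal allele, and its site (chr7:94657769-94658868) lies within 2 kb of an end of PEG10 and of its neighbour SGCE, which is also imprinted. SATB1 stood at percentiles of 94.1 and 92.4 there. CTCF stood at 93.3, 92.3 and 94.9 in shSATB1 and at 94.5, 96.0 and 95.7 in shCtrl. H3K27ac had peaks in both shSATB1 libraries, at 69.5 and 34.6, and none in shCtrl, where the nearest was 146043 bp away. Matrin 3 stood at 99.9 and 98.2. The site thus ranked high in every SATB1, CTCF and Matrin 3 list, and differed between arms in its H3K27ac calls.

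Matrin 3 was found at most of the sites in the longer list and at few in the shorter one. List 1 overlapped 612 sites (79.2%, 76.2 to 81.9), against 95.3% of the sites with CTCF and H3K27ac, 70.6% of those with H3K27ac alone and 40.1% of those with no peak of either. List 2 overlapped 56 sites (7.24%, 5.62 to 9.29), against 16.4%, 0.612% and 0.109%. With list 1 shortened to the length of list 2, the share was 9.96%. The order of the classes was the same in both lists as deposited, and 161 sites had no Matrin 3 peak. With no control library analysed here, signal from open chromatin was not told apart from binding.

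Where Matrin 3 was called, its maximum lay near that of SATB1. The median distance was 61 bp in list 1 and 42 bp in list 2, against 78 and 71 bp at the sites with CTCF and H3K27ac. Only sites under a Matrin 3 peak count here, which limits the distance. The sites are also narrower than that class (median 1102 against 1434 bp), so nothing is read from the smaller distances. Besides PEG10, the highest-ranked sites in both Matrin 3 lists were at ZCCHC24, TOM1L2, CCDC146 and LIPA. TOM1L2 stood at 99.3 and 94.1 in Matrin 3 and at 94.5 and 95.8 in SATB1. LIPA, which encodes lysosomal acid lipase, stood at 98.3 and 92.6 in Matrin 3 and at 93.0 and 89.2 in SATB1. Sites with CTCF in all 3 shSATB1 lists had Matrin 3 in list 2 more often, at 14.0%, than those with CTCF in none, at 2.60%. The median shCtrl CTCF percentile differed between these groups, as given above, and its part in this was not tested.

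Transfer RNA genes, which RNA polymerase III transcribes and which are known to act as insulators in yeast, lay under some of the sites. This feature was chosen after its values were seen. At least 1 of the 443 annotated tRNA genes lay in 19 sites (2.46%, 1.58 to 3.81), which held 30 of these genes. The share was 0.799% of the sites with CTCF and H3K27ac, 0% of those with H3K27ac alone and 0.219% of those with no peak of either. It was 0.101% of the CTCF regions with neither SATB1 nor H3K27ac, and 0.364% of all CTCF regions. Copies of a tRNA or snRNA gene are nearly identical, and the sources used here do not say how reads that map to several copies were treated, so a single copy is uncertain.

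The tRNA sites had stronger SATB1 than the rest, with a median percentile of 73.4 against 48.9. All 19 were called in 3 shCtrl CTCF lists, 10 in all 3 shSATB1 lists and 4 in none, and 2 had H3K27ac in a shSATB1 list. Chromosome 6 held 7 of them, from 26310715 to 27904232, in the region of the large histone gene and tRNA gene cluster. There, chr6:26310715-26313910 covers TRQ-TTG3-1, TRQ-TTG3-2, TRS-TGA3-1 and TRX-CAT1-3. It stood at 62.4 and 53.6 in SATB1, and CTCF was called in shSATB1 replicate 3 alone, at 23.9, against 46.3, 71.0 and 61.5 in shCtrl.

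The tRNA sites on chromosomes 16 and 17 held the strongest CTCF of this kind. The site chr17:8118441-8121066 covers TRK-TTT3-5, TRQ-CTG1-5, TRL-TAG1-1 and TRR-TCT2-1, and stood at 97.4, 97.5 and 98.3 in shSATB1 CTCF and at 97.2, 97.1 and 97.1 in shCtrl CTCF. At TRX-CAT1-8 CTCF stood at 97.4, 96.0 and 98.2 in shSATB1 and at 99.3, 99.2 and 99.4 in shCtrl. At TRL-TAG3-1 it stood at 95.8, 96.9 and 96.0 in shSATB1 and at 98.6, 98.3 and 99.6 in shCtrl. By contrast TRG-CCC5-1 had no shSATB1 CTCF peak, with 71.1, 70.6 and 75.6 in shCtrl. CTCF calls at tRNA genes thus spanned the whole range of outcomes.

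Other small RNA genes followed. Genes for snRNAs lay in 7 sites (0.906%, 0.439 to 1.86), against 0.212% of the sites with CTCF and H3K27ac, and 4 of the 7 held copies of U1 or its variants, RNU1-2, RNVU1-14, RNVU1-6 and RNVU1-27. RNU1-2 stood at 94.5 and 95.1 in SATB1, with CTCF at 15.7, 43.5 and 54.6 in shSATB1 and at 61.0, 66.9 and 49.3 in shCtrl. Of the 4 annotated Y RNA genes, RNY3 and RNY4 lay in 2 of the sites on chromosome 7. The SATB1 sites with CTCF and H3K27ac also held 2 of the 4, and CTCF regions as a whole held all 4. U1 recognises the start of introns during splicing, and Y RNAs bind the Ro60 protein.

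A site lay within 2 kb of an end of 283 of 19974 protein-coding genes (1.42%). The count was 1 of 24 T cell transcription factors (LMO2), 0 of 22 T cell receptor and signalling genes and 0 of 18 CTCF and cohesin genes. It was 2 of 19 imprinted genes found in the gene table of 22 listed, PEG10 and SGCE at the single site above. It was 5 of 250 zinc finger genes of chromosome 19 and 1 of 22 cytokine and cytokine receptor genes (IL6R, at 2 sites). It was 0 of 53 clustered protocadherin, 0 of 39 HOX, 0 of 10 globin, 0 of 392 olfactory receptor, 0 of 84 cytosolic ribosomal protein, 0 of 12 B-lineage and 0 of 12 neuronal genes. SATB1 regions of any class lay at an end of 13 of the 24 T cell transcription factors and 15 of the 22 T cell receptor and signalling genes, against 24.6% of all protein-coding genes. Most lists are short against a background of 1.42%, so nothing is read from the counts of the sites.

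LMO2, a transcriptional cofactor of blood stem cells that is often activated in T cell leukaemia, had a site 1430 bp from an end (chr11:33893506-33894672). SATB1 stood at 89.4 and 93.4 there. CTCF was called in no shSATB1 library and stood at 39.97, 32.8 and 42.9 in shCtrl, and the nearest H3K27ac lay 155084 bp away. At IL6R, the interleukin 6 receptor gene, the site near one end had CTCF at 37.1, 38.1 and 54.6 in shSATB1 and at 57.2, 51.5 and 59.9 in shCtrl. The site near the other end had none in shSATB1 and 3.88, 5.44 and 4.07 in shCtrl. LMO2 and the second IL6R site thus lacked CTCF calls in shSATB1.

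The zinc finger genes of chromosome 19 were ZNF541, ZNF554, ZNF571, ZNF573 and ZNF653. CTCF stood at 97.2, 98.5 and 98.3 in shSATB1 and at 99.0, 99.1 and 98.8 in shCtrl at ZNF541. At ZNF653 it stood at 96.5, 97.9 and 97.9 in shSATB1 and at 98.4, 98.0 and 98.4 in shCtrl. At ZNF571 it was called in no shSATB1 library and stood at 33.9, 26.4 and 33.8 in shCtrl. Chosen after their values were seen, EOMES, a T-box factor of effector T cells, and PIM1, a kinase induced by cytokines, also had a site at an end. EOMES held CTCF at 79.1, 89.4 and 83.6 in shSATB1 and at 82.0, 87.1 and 89.5 in shCtrl, and PIM1 at 90.4, 87.4 and 86.4 in shSATB1 and at 84.5, 87.4 and 89.0 in shCtrl. At ZNF541, ZNF653, EOMES and PIM1 CTCF was called in all 6 lists.

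The sites were spread over all chromosomes examined, in unequal shares. They made up 10.7% of SATB1 regions on chromosome 17 (58 of 544, 8.34 to 13.5), 9.80% on chromosome 20, 9.75% on chromosome 15 and 8.71% on chromosome 16. The lowest shares were 2.52% on chromosome 4 (16 of 635, 1.56 to 4.05) and 2.55% on chromosome X (6 of 235). As a share of SATB1 regions with CTCF the order differs: chromosome 15 is highest at 14.2%, then 20 at 12.1% and 17 at 12.03%, and X at 4.03% is below 4 at 4.56%. Most sites stood alone: of 750 pairs of neighbours on a chromosome, 19 were under 10 kb apart and 74 under 100 kb. The densest stretch of 1 megabase held 6 sites on chromosome 17, from 7383824 to 8121066, at or nearest to TNK1, TMEM102, GUCY2D, ALOX15B and ALOXE3. CTCF was called in all 3 shSATB1 lists at 5 of these 6 sites, and the other was the ALOX15B site named above.

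**Figure D5:**
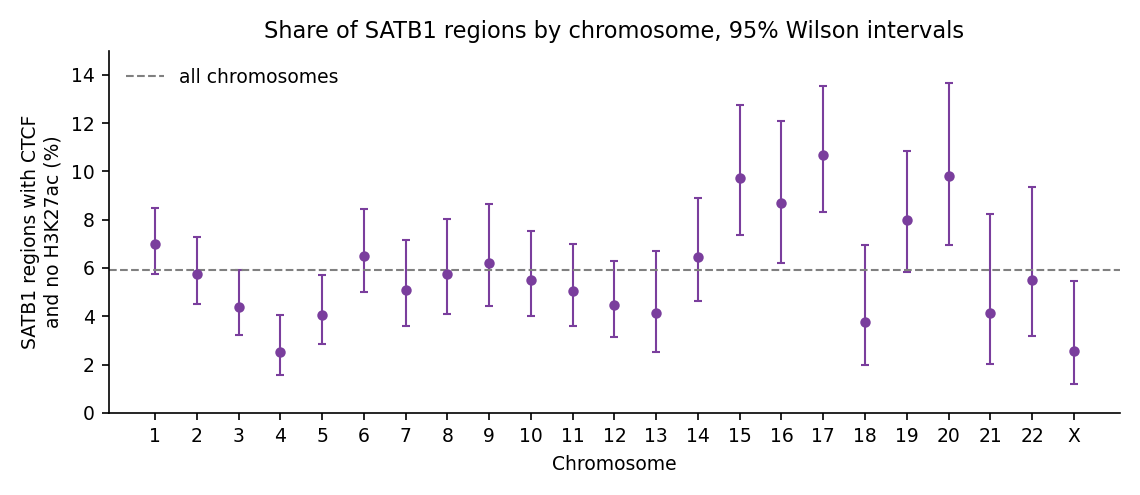
Share of SATB1 regions that have CTCF and no H3K27ac (y axis, %) by chromosome (x axis), with 95% Wilson intervals; the dashed line is the share over all chromosomes. With this denominator chromosome 17 is highest at 10.7% and chromosome 4 lowest at 2.52%.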

How the data were processed

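The authors called peaks library by library. Their deposited files list every peak with its position, summed signal and highest signal, in whole numbers that no source says were scaled. SEACR, Bowtie2, Trim Galore, SAMtools, deepTools and, for all but Matrin 3, MACS2 are named, with build GRCh38, per the submitters' processing notes; their versions, any control library and the treatment of reads that map to several places are not given in the sources used here.

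Of 273747 peaks, 405 (0.148%) lay off chromosomes 1 to 22 and X and were left out. Peaks sharing 1 bp were merged. Genes and promoters were RefSeq GRCh38.p14. The share of sites called in each library was tested, shSATB1 against shCtrl, by exact permutation of libraries (two-sided, smallest p 0.1), which cannot pass 0.05. The sites, gene lists and tests were chosen with earlier results of these data known. Named sites were the highest-ranked by SATB1, by CTCF lost or kept, by H3K27ac in shSATB1 and by Matrin 3, those nearest the limits, and listed genes with a site at an end. Genes were named by overlap or else by the nearest end. Alternatives were other rules for the sites, equal list lengths, 500 bp windows, deciles of CTCF rank, other gene windows, each library left out and a replicate block. The scripts were tested on simulated sites. Software was scipy 1.17.1, pandas 2.3.3, numpy 2.4.6, matplotlib 3.10.9 and Python 3.11.15. Positions are 1-based.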

Additional observations from a re-analysis of the deposited data

How the results depend on the processing

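The number of sites ran from 686 to 1116 under other rules, and from 691 to 998 when 1 library was left out. Cutting the 6 CTCF lists to 14695 peaks turned the difference in gap between arms from SATB1 sites with CTCF and H3K27ac to 1.62 points, and that between sites at and away from gene ends to -5.54. It made the arm difference in CTCF calls -2.63 points (46.9% in shSATB1, 49.5% in shCtrl), against -31.7 with 500 bp windows on the maxima. The difference in gap between arms from CTCF regions with neither mark kept its direction under every alternative run. H3K27ac in shSATB1 was found at 37.3% of sites in any list and 17.1% in both when peaks within 2 kb counted, and at 29.5% in any list with equal list lengths. Matrin 3 list 1 cut to the length of list 2 gave 9.96%. Gene ends were near 28.6% of sites within 1 kb and 49.3% within 10 kb. The median SATB1 to CTCF distance was 104 bp for 2 other pairs of lists. With the stated rule 19 sites held a tRNA gene, and 29 did when only H3K27ac called in both shCtrl lists barred a site. The cause of these moves was not tested, beyond the lengths and windows that each setting changes.

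With each library left out in turn, the arm difference in CTCF calls ran from -44.6 to -36.9 points. The difference in gap between arms from CTCF and H3K27ac sites ran from -12.1 to -8.32. That from CTCF regions with neither ran from 13.6 to 16.02, and that between gene ends and elsewhere from 19.7 to 24.6. The CTCF percentile of the sites minus that of CTCF and H3K27ac sites, -11.8 in the 3 shCtrl lists, ran from -10.7 to -8.38. Leaving out a SATB1, shCtrl CTCF or shCtrl H3K27ac list changes the rule and so the sites themselves. A range therefore need not hold the value of the stated rule. H3K27ac in any shSATB1 list ran from 18.4% to 43.1%, and in both from 10.9% to 19.9%. Matrin 3 list 1 ran from 75.3% to 81.7%, gene ends from 33.2% to 35.4%, the maxima distance from 97 to 121 bp, and sites with a tRNA gene from 19 to 24. Leaving out a Matrin 3 list leaves the other list's value, given in the report.

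Replicate numbers did not pair the CTCF libraries: the correlations of deviations for same-numbered libraries were -0.00368, -0.00959 and 0.0178. With the replicate block the exact p was 0.25 for each CTCF comparison, the smallest it allows. No paired analysis of H3K27ac was possible because the rule sets the shCtrl count to 0. The depth of the libraries is unknown, which limits any statement that a peak is absent.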

Other observations

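Peaks of a single shSATB1 H3K27ac list were unevenly divided at SATB1 sites without CTCF as well: 131 of 1829 were in replicate 1 alone and 54 in replicate 2 alone, with 148 in both. In the reverse direction, of 1684 such sites without a shSATB1 peak, 56 were in shCtrl replicate 1 alone, 41 in replicate 2 alone and 91 in both.

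A pair of sites beside the beta-actin gene ACTB, chr7:5523551-5525034 and chr7:5525205-5526722, lay under 1 broad CTCF peak in shCtrl replicates 1 and 3 (percentiles of 99.5 and 99.6) and under a peak at 29.0 in replicate 2. The first had CTCF peaks in 2 shSATB1 libraries, at 8.07 and 18.0, and the second in all 3, at 0.337, 8.07 and 18.0. A broad merged peak therefore lends its rank to every site beneath it.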
